A study of Mus musculus with 12 samples.

Results

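The rise or fall of each transcript after unilateral ureteral obstruction (UUO) was compared between Acot12+/+ and Acot12-/- mice. Each obstructed kidney was set against the contralateral kidney (CL) with the same replicate number, taken as that of the same mouse. All 12 of the 12 RNA-seq libraries of the series entered the comparison, as 6 kidney pairs, 3 of each genotype. Every library is kidney cortex taken on day 7 after the ureter of a single kidney was closed, from young male C57BL/6 mice (C57BL/6N in the study's methods). Acot12-/- mice carry a mutation of Acot12 made with an RNA-guided endonuclease and passed through the germline, so every cell type of the animal lacks the normal gene, and Acot12+/+ mice are wild type. Both genotypes were operated, neither received a drug, and the CL kidney is the unobstructed kidney of an operated animal, not that of a sham-operated one. For each pair, log2(FPKM + 1) of the CL kidney was subtracted from that of the UUO kidney with the same replicate number, where FPKM are the deposited fragments per length of transcript and per depth of library. The mean of the 3 differences is called the response of a genotype, and the Acot12-/- response less the Acot12+/+ response is called the interaction. A positive interaction is a larger rise, or a smaller fall, in Acot12-/- pairs. Of 23183 gene symbols, 13243 were tested, those with at least 1 FPKM in at least 3 libraries, after 28 that passed this filter were left out because they are listed at 0 in a library beside at least 10 FPKM in another library of the group.

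ACOT12 is a thioesterase that splits acetyl-CoA into acetate and CoA, and in the kidney it belongs to the proximal tubule. Closing the ureter raises the pressure in the tubules, which injures the tubular epithelium, draws in macrophages and lymphocytes, activates fibroblasts and thins the peritubular capillaries, while the other kidney takes over filtration and grows. An interaction asks whether this change differs between genotypes. By its arithmetic it can come from the obstructed kidney, from the contralateral kidney or from both. Levels or genotype differences on either side are therefore given below for many of the results, though not for all.

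Depth, estimated from the steps between low values, was 12460000 to 13820000 fragments for wild-type CL libraries and 21400000 to 23000000 for wild-type UUO libraries. Mutant CL libraries held 14080000 to 16300000 and mutant UUO libraries 18580000 to 21860000. Acot12-/- CL replicate 2 stood apart from the others. Its estimated fragment length was 170 bases, against 210 to 250 in the other 11 libraries, and correlations between replicates fell to 0.936 in its group, whereas the lowest was 0.966 in the other groups. Counts of called interactions that change without its pair are therefore given both ways. Acot12-/- CL libraries listed 7050 to 7234 genes at 0 and the shallower Acot12+/+ CL libraries 6582 to 6690. The labels do not say that kidneys of the same number come from the same mouse; in the data the deviations from the group means correlated at 0.15, 0.24 and 0.31 between Acot12+/+ kidneys of the same number and at 0.32, 0.18 and 0.25 between Acot12-/- kidneys, and at no more than 0.10 between kidneys of different numbers. Deviations cancel out within a group, so the low correlations between different numbers are not separate evidence. The 6 pairs are taken as mice on this basis, and other reasons for a link between same-numbered kidneys were not tested.

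Acot12 itself, the targeted gene, lay lower in each Acot12-/- library than in each Acot12+/+ library of the same side. Wild-type CL kidneys held 73.8, 52.7 and 78.1 FPKM and wild-type UUO kidneys 9.98, 16.7 and 21.2, replicates 1 to 3 in order here and throughout. Acot12-/- mice held 9.14, 9.01 and 6.80 in CL and 3.28, 1.80 and 3.86 in UUO kidneys. Its fall after obstruction, which passed the test in both genotypes, was -2.07 on the log2 scale in Acot12+/+ and -1.25 in Acot12-/- pairs, and the interaction of 0.81 did not pass (adjusted p = 0.420).

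Obstruction changed most of the transcriptome in both genotypes, and the genotypes differed in the response of few genes. With limma and a Benjamini-Hochberg adjusted p under 0.05, 6754 of 13243 genes were called in Acot12+/+ pairs (51%, 24.7% higher in UUO) and 7445 in Acot12-/- pairs (56.2%, 27.3% higher). The mean responses of the genotypes correlated across genes (Pearson r = 0.913; genes are not independent replicates), and 86.4% of genes had the same sign. The interaction was called for 83 genes (0.627%), of which 78 were higher in Acot12-/- (0.589%) and 5 lower (0.0378%). At an unadjusted p under 0.05 there were 1748 genes (13.2%), 1217 higher (9.19%) and 531 lower (4.01%), and the 3 differences of one genotype did not overlap the 3 of the other in 2715 genes (20.5%, 11.2% higher and 9.31% lower in Acot12-/-). Interactions of the 83 genes ran from -3.02 to 2.58, and their adjusted p from 0.030 to 0.050. The last genes inside the threshold were Retnlg and Slc43a3 with an adjusted p of 0.04999, and the first outside were Atoh8 and Snhg8 with 0.0517.

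The number of calls rested on single pairs. In each called gene the 3 Acot12-/- differences did not overlap the 3 Acot12+/+ ones. Leaving out a pair could therefore not turn the direction of such a gene. Without Acot12-/- replicate 2, the pair of the library that stood apart, 1537 genes were called (11.6%), 853 higher (6.44%) and 684 lower (5.16%), all 83 among them. Without any other pair almost none were called: 0 without Acot12+/+ replicate 1, 0 without Acot12+/+ replicate 2, 2 without Acot12+/+ replicate 3, 0 without Acot12-/- replicate 1 and 0 without Acot12-/- replicate 3, with 1197, 1050, 1404, 1462 and 1602 genes at an unadjusted limma p under 0.05. The 2 genes called without Acot12+/+ replicate 3 are not among the 83. Each of the 83 kept its direction in all of these fits, which the lack of overlap had fixed beforehand. A fit that ignored the pairs called 14 genes, 14 higher and 0 lower. Scaling all libraries to equal totals called 0 (1512 at an unadjusted p under 0.05). All 83 kept their direction in both, but ignoring the pairs leaves the interactions themselves unchanged. Equal totals moved the median interaction over all genes to -0.175. Why no gene was called with equal totals was not tested. List counts below without Acot12-/- replicate 2 come from the only omission of a pair that raised the number of calls. With all pairs in, the text below writes "called" for an adjusted p under 0.05 of the interaction.

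**Figure D1:**
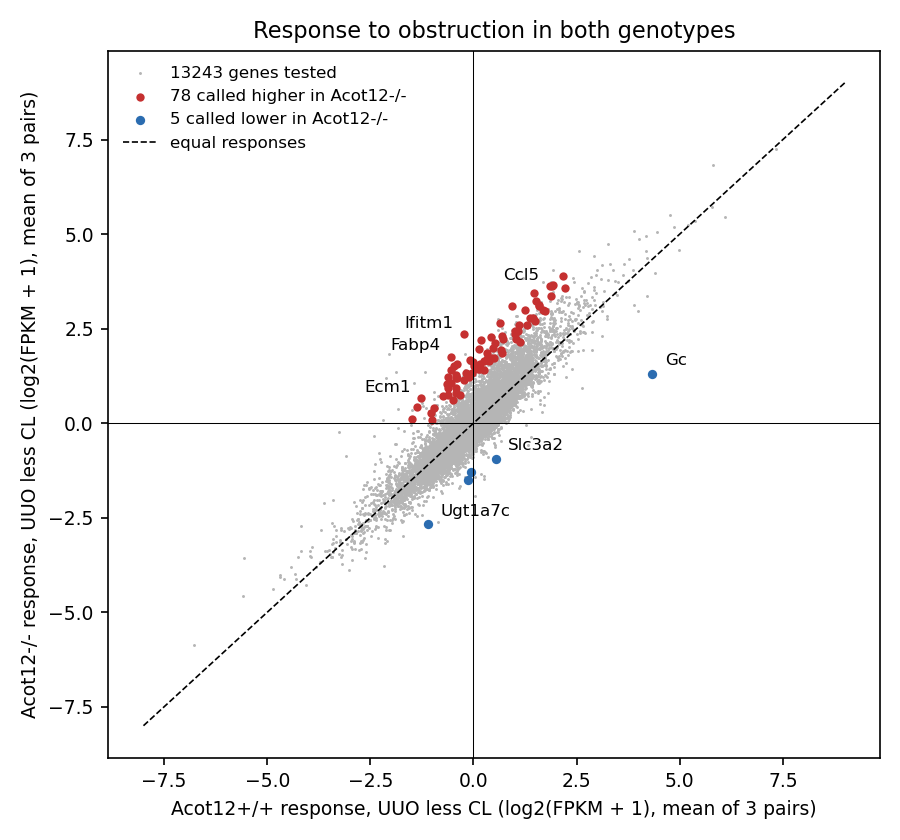
Response to obstruction (UUO less CL, log2(FPKM + 1), mean of 3 pairs) in Acot12-/- against Acot12+/+ mice, with one point per gene and a dashed line where both are equal. The 78 genes called higher in Acot12-/- (red) all lie above the line, with median responses of 0.22 (wild type) and 1.71 (mutant), and Gc lies farthest below it among the 5 called lower (blue).

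Most of the 78 genes called higher started lower in the contralateral kidney of Acot12-/- mice and ended near the wild-type level in the obstructed kidney. In 73 of the 78, each Acot12-/- CL library lay below each Acot12+/+ CL library, which held for 9.73% of all genes tested. In 14 of them each Acot12-/- UUO library lay above each Acot12+/+ UUO library (5.5% of all genes). The median genotype difference of the 78 genes was -1.22 on the log2 scale in CL and 0.28 in UUO kidneys, and their median response was 0.22 in Acot12+/+ and 1.71 in Acot12-/- pairs. The size of the genotype difference was larger in CL than in UUO for 74 of the 78, as it was for 68.8% of all genes, whose median size was 0.19 in CL and 0.10 in UUO. The exceptions, with the larger difference in UUO kidneys, were Ifi44, Ms4a4c, Pcp4 and Retnlg. All 5 genes called lower had each Acot12-/- CL library above each Acot12+/+ CL library (8.6% of all genes) and for 0 of the 5 was each Acot12-/- UUO library below each Acot12+/+ UUO library (6.48% of all genes). Since the genes were chosen by the interaction, these values describe where it arose and are no further test.

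Set by their own responses, 33 of the 78 rose in both genotypes and rose more in Acot12-/- mice, 29 were not called in Acot12+/+ and rose in Acot12-/-, 13 fell in Acot12+/+ and rose in Acot12-/-, and 3 fell in Acot12+/+ and were not called in Acot12-/-. The mean log2 level over the 78 genes was 3.76, 3.75 and 3.91 in wild-type CL libraries and 4.16, 4.09 and 4.23 after obstruction. In Acot12-/- mice it was 2.21, 2.73 and 2.82 in CL and 4.16, 4.63 and 4.61 in UUO. The 3 Acot12-/- CL libraries were the lowest of the 12, including the replicate that stood apart. Over all genes tested the corresponding means lay between 3.48 and 3.58 in every library.

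**Figure D2:**
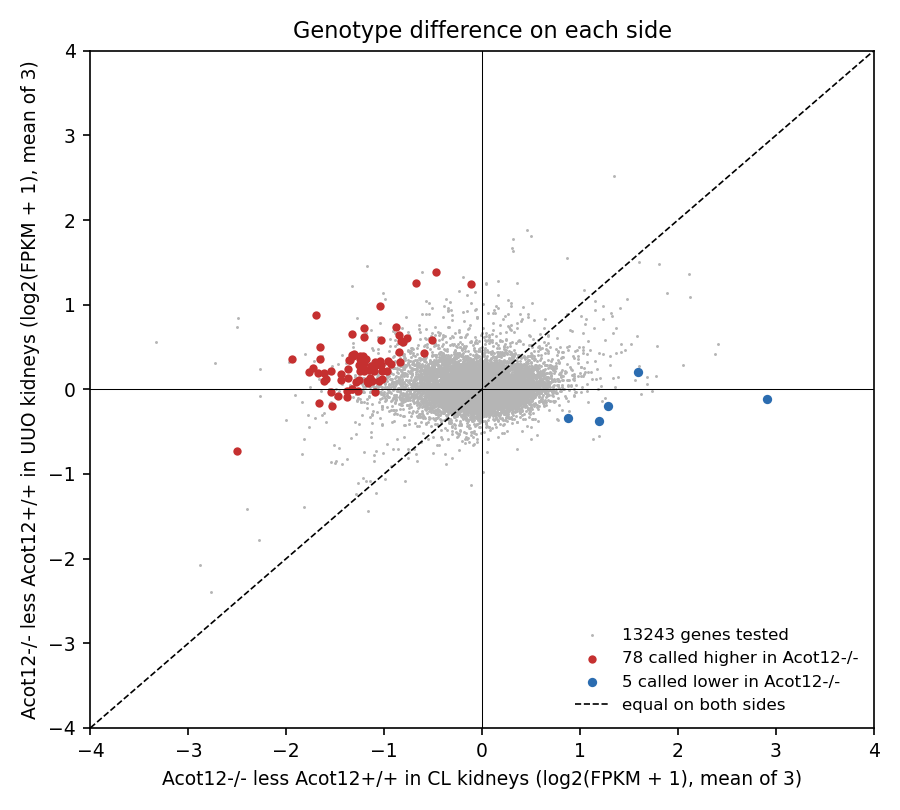
Genotype difference (Acot12-/- less Acot12+/+, log2(FPKM + 1), means of 3 libraries) in UUO kidneys against CL kidneys, with one point per gene and a dashed line where both sides are equal. The 78 genes called higher in the interaction (red) lie mostly to the left of zero in CL, at a median of -1.22, and close to zero in UUO, at a median of 0.28, and the 5 called lower (blue) lie to the right in CL.

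Genes of the vascular endothelium rose after obstruction in Acot12-/- mice, and few of them did in Acot12+/+ mice. Of 20 endothelial markers tested, 5 were called, 5 higher (0.589% of all genes) and 0 lower (0.0378%). Of the 20, 17 had a higher interaction at an unadjusted p under 0.05 (9.19% of all genes), and 20 had an interaction above 0 (48.6% of all genes). The median interaction of the list was 1.18, against -0.01 over all genes. Over the pairs the median difference of the list was -0.21, -0.07 and -0.18 in Acot12+/+ and 1.03, 1.33 and 0.96 in Acot12-/- mice, so the genotypes did not overlap. In their responses, 3 of the 20 rose and 4 fell in Acot12+/+ mice, and 17 rose and 0 fell in Acot12-/- mice. Without Acot12-/- replicate 2 the median was 1.04 and 14 of the 20 were called, all higher (6.44% of all genes). In whole cortex, fewer cells of a type and less RNA per cell cannot be told apart, here and in the lists that follow.

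Plvap encodes the protein of the diaphragms of fenestrated capillaries (chr8:71497765-71511752, minus strand, GRCm38). It read 61.2, 51.2 and 80.4 FPKM in the CL and 56, 51.5 and 71.9 in the UUO kidneys of wild-type mice. Mutant CL kidneys gave 18.5, 17.7 and 28.4 and the UUO kidneys 61.7, 63.4 and 83.3. The Acot12-/- CL libraries stood alone below the other 9, which overlapped. Its response was -0.09 in Acot12+/+ and 1.66 in Acot12-/- pairs, and the interaction 1.76 (SE 0.18) was called (adjusted p = 0.030). The pairwise differences were -0.13, 0.01 and -0.16 in wild-type and 1.68, 1.79 and 1.52 in mutant mice, without overlap. Tie1, a receptor tyrosine kinase of endothelial cells, gave 7.96, 7.08 and 9.81 FPKM in wild-type CL libraries and 7.82, 7.11 and 8.98 after obstruction. The mutant libraries read 3.13, 3.33 and 3.69 in CL and 9.58, 10.5 and 10.1 after obstruction. Its genotypes did not overlap on either side, lower in Acot12-/- CL and higher in Acot12-/- UUO, and the interaction was 1.38 (adjusted p = 0.031). The adhesion molecule Pecam1 had 4.74, 8.12 and 7.03 FPKM in Acot12-/- CL and 13 to 22.7 in the other 9 libraries, with an interaction of 1.29 (adjusted p = 0.038). Egfl7, a secreted protein of vessel walls, and Robo4, a guidance receptor of endothelial cells, had interactions of 1.71 and 1.38 with adjusted p of 0.037 and 0.047.

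Other called genes are known from endothelial cells and were not on the list, so they were named after their values were seen. They included the flow-responsive factor Klf2 (interaction 1.51), the ETS factor Ets1 (1.25), the GTPase regulators Rasip1 (1.38) and Arap3 (1.37), the protocadherin Pcdh12 (1.06) and Esm1 (1.97), a proteoglycan of sprouting vessels. Klf2 had 4.13, 6.56 and 7.19 FPKM in Acot12-/- CL and 14.2 to 21.6 in the other 9 libraries. Among 21 genes of VEGF, angiopoietin and PDGF signaling tested, Tie1 and the semaphorin and VEGF co-receptor Nrp2 were called higher (0.589% of all genes). Of the 21, 10 were higher at an unadjusted p under 0.05 (9.19% of all genes), and the median interaction was 0.68. Nrp2 had an interaction of 1.15 (adjusted p = 0.044). With Acot12-/- replicate 2 left out, 10 of these 21 were called, all higher (6.44% of all genes).

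Beside the endothelial genes, the summed level of all 20 endothelial markers ran from 297 to 430 FPKM (CL) and from 274 to 334 (UUO) in wild-type mice, from 117 to 178 (CL) and from 311 to 379 (UUO) in Acot12-/- mice, and no marker was at 0 in all 3 libraries of a group. Of 4 red blood cell genes tested 0 were called, the median interaction was 1.13, and the medians of the pairs overlapped between genotypes. The sum of these markers ran from 73.4 to 646 FPKM (CL) and from 67.4 to 94.3 (UUO) in wild-type mice, from 11.2 to 85.3 (CL) and from 82.8 to 139 (UUO) in Acot12-/- mice, over 6 of 8 markers in the files, none of them at 0 throughout a group. The alpha globin Hba-a1 read 62.5, 632 and 219.8 FPKM in wild-type and 22.5, 3.82 and 76.9 in mutant CL kidneys, with overlap, and its interaction of 3.88 did not pass (adjusted p = 0.123). With Acot12-/- replicate 2 left out, 1 of the 4 was called higher (6.44% of all genes), Slc4a1. This gene is also on the list of distal tubule and collecting duct markers, so it is not particular to blood. The part of blood content in the endothelial result was not tested. Podocyte markers, from the glomerular filter, had 0 of 12 called and a median interaction of 0.10, with sums of 95.6 to 139 FPKM in Acot12+/+ CL and 118 to 164 in Acot12-/- CL libraries.

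**Figure D3:**
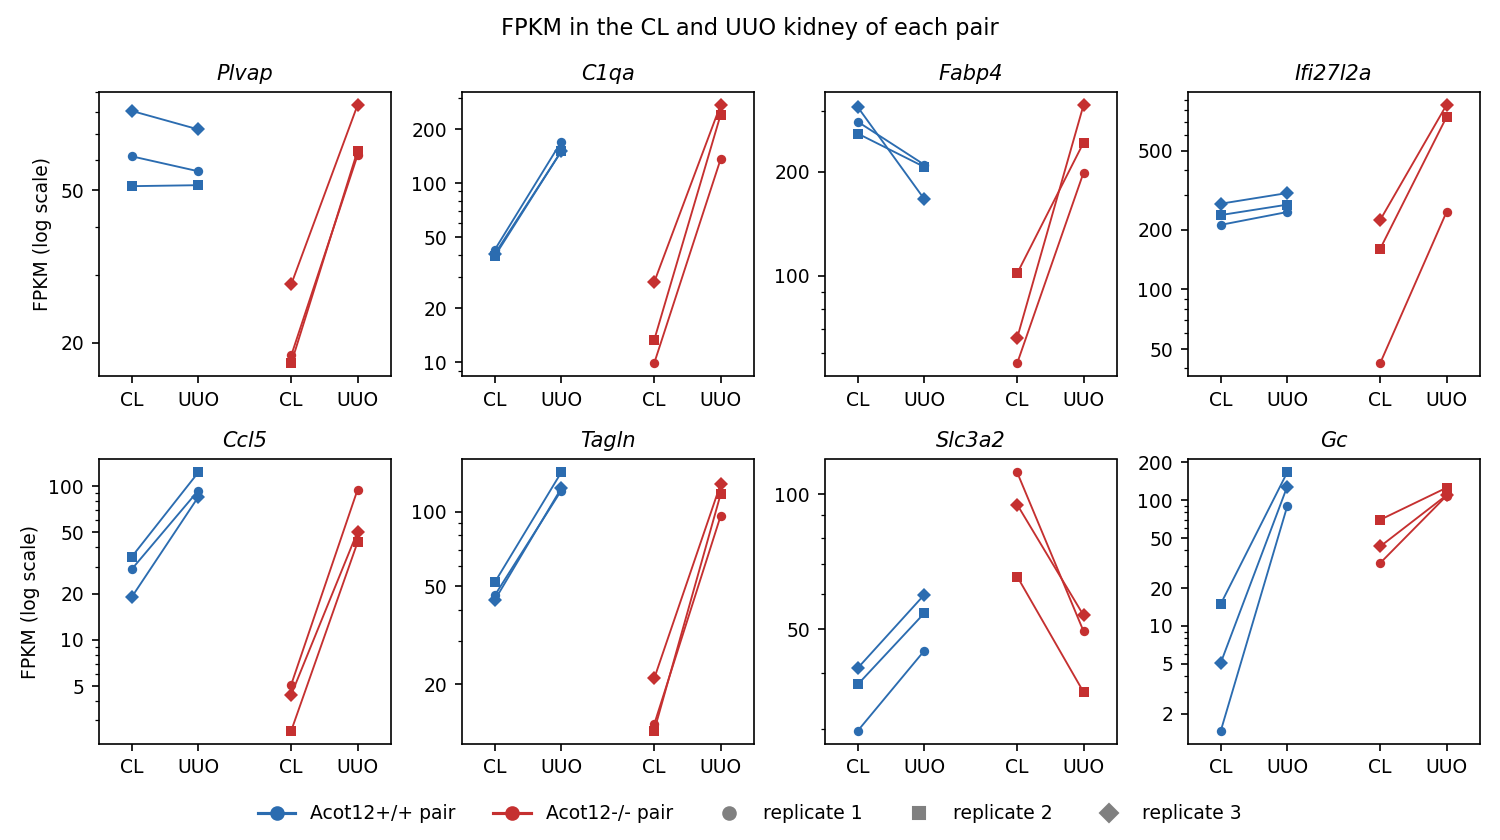
FPKM on a log axis in the CL and the UUO kidney of each mouse for 8 called genes, with kidneys of the same replicate number joined. For Plvap, C1qa, Fabp4, Ccl5 and Tagln the Acot12-/- CL libraries lie below every other library and the UUO libraries meet the wild-type range or come near it, whereas for Slc3a2 and Gc the Acot12-/- CL libraries lie above those of Acot12+/+ CL.

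Most macrophage genes rose after obstruction in both genotypes, with the larger median response in Acot12-/- pairs. Of 18 macrophage and monocyte markers tested, 3 were called higher (0.589% of all genes), C1qa, C1qc and Aif1. Of the 18, 11 were higher at an unadjusted p under 0.05 (9.19% of all genes) and 17 had an interaction above 0 (48.6%). The median interaction was 1.03, from a median response of 1.86 in Acot12+/+ and 2.95 in Acot12-/- mice. Responses passed the test in the upward direction for 16 of the 18 in Acot12+/+ and 17 in Acot12-/- mice. Its 20 members summed to between 213 and 238 FPKM (CL) and between 829 and 984 (UUO) in wild-type mice, and to between 73.6 and 151 (CL) and between 887 and 1178 (UUO) in Acot12-/- mice, so the CL groups did not overlap and the UUO groups did. The median was 1.10 and 9 of 18 were called without Acot12-/- replicate 2, all higher (6.44% of all genes).

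C1qa and C1qc encode chains of C1q, which starts the classical complement pathway and which tissue macrophages make. C1qa (chr4:136895917-136898803, minus strand, GRCm38) went from 42.6, 39.2 and 40.3 FPKM (CL) to 170.4, 151 and 151 (UUO) in wild-type mice. Acot12-/- mice went from 9.89, 13.3 and 28.1 to 136, 241 and 274. The CL groups did not overlap and the UUO groups did. Its response was 1.92 in Acot12+/+ and 3.66 in Acot12-/- pairs, with an interaction of 1.74 (SE 0.24, adjusted p = 0.038). C1qc, its neighbour on chromosome 4, had nearly the same interaction, 1.71 (adjusted p = 0.038), and the third chain, C1qb, named after its value was seen, had 1.39 and missed the threshold (adjusted p = 0.0521). Aif1, the calcium-binding protein known as IBA1, read 2.90, 10.8 and 9.73 FPKM in mutant and 18.8, 21.3 and 16.1 in wild-type CL kidneys, and its interaction was 1.73 (adjusted p = 0.038). Other called genes of myeloid cells, again named after their values were seen, were receptors for the constant part of IgG, Fcgr3 with 1.5 and Fcgr4 with 1.49, the B-cell and macrophage receptor Cd72 (1.62) and the lysosomal protein Laptm5 (1.22). Clec4b1, a lectin receptor, read 5.12, 3.71 and 3.06 FPKM in the CL and 9.20, 8.66 and 7.46 in the UUO kidneys of wild-type mice. Mutant CL kidneys gave 0.147, 0.463 and 1.24 and the UUO kidneys 8.05, 13.8 and 16.4. Its interaction of 2.15 (SE 0.20, adjusted p = 0.030) was positive and its pairwise differences, 0.74, 1.04 and 1.06 against 2.98, 3.34 and 2.96, did not overlap. Clec4b1, Fcgr3, Fcgr4 and the interferon-induced Ifitm genes belong to families of close copies among which reads may be shared, so their levels are less certain than those of single-copy genes.

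Chemokines followed the same direction. Of 22 tested, Ccl5 and Ccl6 were called higher (0.589% of all genes), and the median interaction was 0.83. At an unadjusted p under 0.05, 10 were higher (9.19% of all genes) and 0 lower (4.01%). Ccl5, which draws T cells and monocytes, gave 28.9, 34.8 and 19 FPKM in wild-type CL libraries and 93.7, 123 and 85.1 after obstruction. The mutant libraries read 5.12, 2.56 and 4.40 in CL and 95.1, 43.3 and 50.7 after obstruction. It was lower in Acot12-/- CL than in every other library, and in UUO kidneys the groups overlapped, with 2 of 3 Acot12-/- libraries below all Acot12+/+ ones. Its interaction was 1.77 (SE 0.24, adjusted p = 0.038), and the genotype difference was -2.50 in CL and -0.73 in UUO kidneys. Ccl6, a chemokine of myeloid cells, went from 5.39, 9.02 and 8.35 FPKM (CL) to 18.3, 24.3 and 25.1 (UUO) in wild-type mice. Acot12-/- mice went from 1.22, 3.09 and 3.17 to 28.6, 43.9 and 36.2. Here the genotypes did not overlap on either side, lower in CL and higher in UUO, and the interaction was 1.98 (adjusted p = 0.031). Ccl2, the chief chemokine for monocytes, rose by 3.77 in Acot12+/+ and by 4.35 in Acot12-/- pairs, and its interaction of 0.58 was not called (adjusted p = 0.483). Among the 22 chemokines 6 were called without Acot12-/- replicate 2, all higher (6.44% of all genes). Complement genes had 2 of 15 called higher (0.589% of all genes), the C1q genes above, with a median interaction of 0.82. Without that pair 8 were called, all higher (6.44% of all genes).

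Among interferon-stimulated genes the obstructed kidneys also took part. Of 32 tested, 1 was called higher (0.589% of all genes), and the median interaction was 0.80. At an unadjusted p under 0.05, 21 were higher (9.19% of all genes). The median genotype difference of the list was 0.88 in UUO and 0.11 in CL kidneys, whereas that of the endothelial list was 0.16 in UUO and -0.90 in CL. The mean log2 level of its genes was 2.61, 2.56 and 2.92 in wild-type CL and 3.56, 3.53 and 3.50 in wild-type UUO libraries, and 1.93, 3.62 and 2.94 in mutant CL and 3.60, 4.99 and 4.57 in mutant UUO libraries. Replicate 1 of the mutant mice was thus the lowest and replicate 2 the highest on both sides. Ifi44, the called member, went from 8.28, 7.54 and 12.9 FPKM (CL) to 5.25, 5.73 and 7.61 (UUO) in wild-type mice. Acot12-/- mice went from 2.39, 13.1 and 4.59 to 7.20, 26.1 and 21.2. Acot12-/- replicate 2 was high on both sides, the groups overlapped on both sides, and the differences of the pairs, -0.57, -0.34 and -0.69 against 1.27, 0.94 and 1.99, did not overlap. Its interaction was 1.93 (SE 0.28, adjusted p = 0.038).

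The interferon-induced genes Ifi27l2a, Ifitm1 and Ifitm3 (1.61, adjusted p = 0.031) were called outside the list. Ifi27l2a read 212, 237 and 271 FPKM in the CL and 246, 268 and 306 in the UUO kidneys of wild-type mice. Mutant CL kidneys gave 42.4, 160.2 and 224 and the UUO kidneys 246, 741 and 853. Levels varied between Acot12-/- mice on both sides, with replicate 1 lowest in each kidney, whereas the pairwise differences were close, 0.21, 0.17 and 0.18 in Acot12+/+ and 2.51, 2.20 and 1.92 in Acot12-/- pairs. The interaction was 2.02 (SE 0.20, adjusted p = 0.030). Ifitm1, a membrane protein that hinders viral entry, had the largest positive interaction of the called genes, 2.58 (SE 0.39, adjusted p = 0.038). It gave 33, 14.7 and 17.5 FPKM in wild-type CL libraries and 14.9, 13.1 and 26.3 after obstruction. The mutant libraries read 4.26, 6.18 and 6.62 in CL and 22.6, 34.3 and 45.1 after obstruction. The CL groups did not overlap, and the UUO groups did. Without Acot12-/- replicate 2, 17 of the 32 interferon-stimulated genes were called, all higher (6.44% of all genes), among them Isg15, Ifit1, Irf7 and Oas2. Of 18 genes of antigen presentation on MHC molecules, 0 were called and the median interaction was 0.41, and 3 were called without that pair.

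The called genes of all kinds were also compared in the sequence before their start sites. RefSeq promoter windows (GRCm38.p6) matched 10078 of the genes tested by symbol, 54 of the 78 called higher and 4 of the 5 called lower. In the 250 bases before the start, on either strand, AGGAAGT, a core bound by ETS factors including PU.1, stood in 16 of 54 windows of genes called higher (29.6%) and in 887 of all 10078 (8.8%). The core of the interferon-stimulated response element, GAAA followed after any pair of bases by GAAA, stood in 6 of 54 (11.1%) and in 3.22% of all. The other 6 strings searched were GAGGAAGT, which contains the first, in 8 of 54 (3.06% of all), GAGGAA, contained in it, in 24 of 54 (26.2%), CCGGAAG, another ETS core, in 1 of 54 (15% of all), TTCNNNGAA, the core of STAT sites, in 2 of 54 (7.35%), TGANTCA, the core of AP-1 sites, in 6 of 54 (5.7%) and GGAA followed after any 4 bases by GGAA in 2 of 54 (2.64%). Among the 4 genes called lower, GAGGAA stood in 3, CCGGAAG in 1 and the other strings in 0. The strings were chosen with the called genes known, no test was made, and a match is only a match of letters. A gene with several start sites counted once if any of its windows held the string. These 5 windows show matches in an endothelial gene, myeloid genes and an interferon-linked gene, 250 bases each, 5′ to 3′ on the strand of the gene and ending at the base before the start, with matches to AGGAAGT or to the interferon core on either strand in capitals.
Egfl7, 1 of its 3 windows, plus strand, chr2:26583615-26583864: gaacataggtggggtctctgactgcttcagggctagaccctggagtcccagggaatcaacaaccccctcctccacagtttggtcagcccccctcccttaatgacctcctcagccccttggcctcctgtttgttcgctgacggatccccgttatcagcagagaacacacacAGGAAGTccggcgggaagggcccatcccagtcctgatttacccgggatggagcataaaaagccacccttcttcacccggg
C1qc, minus strand, chr4:136892915-136893164: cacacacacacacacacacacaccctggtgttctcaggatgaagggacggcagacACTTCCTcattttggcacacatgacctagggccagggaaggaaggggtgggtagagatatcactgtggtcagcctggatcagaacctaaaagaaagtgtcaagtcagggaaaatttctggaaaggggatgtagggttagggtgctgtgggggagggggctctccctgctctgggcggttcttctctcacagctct
Ccl6, minus strand, chr11:83593088-83593337: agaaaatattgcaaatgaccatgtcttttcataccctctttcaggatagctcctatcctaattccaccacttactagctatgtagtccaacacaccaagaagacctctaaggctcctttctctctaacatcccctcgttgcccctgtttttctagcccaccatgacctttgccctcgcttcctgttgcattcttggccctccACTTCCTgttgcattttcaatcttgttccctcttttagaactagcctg
Fcgr4, plus strand, chr1:171018676-171018925: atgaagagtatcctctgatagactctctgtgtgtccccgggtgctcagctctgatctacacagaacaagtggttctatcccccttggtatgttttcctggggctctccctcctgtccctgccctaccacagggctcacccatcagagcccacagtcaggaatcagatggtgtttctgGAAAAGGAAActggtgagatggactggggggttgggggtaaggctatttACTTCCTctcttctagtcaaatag
Phf11b, minus strand, chr14:59341331-59341580: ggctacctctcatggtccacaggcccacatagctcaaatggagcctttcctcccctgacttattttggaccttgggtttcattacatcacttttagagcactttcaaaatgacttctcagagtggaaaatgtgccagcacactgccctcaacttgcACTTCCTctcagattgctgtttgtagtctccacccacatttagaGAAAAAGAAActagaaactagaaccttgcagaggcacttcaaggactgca
Fcgr4 and Phf11b held both strings. The window shown for Egfl7 held the ETS core in the direction of the gene, another Egfl7 window held it on the other strand, where it reads ACTTCCT, and so did those of C1qc, Ccl6, Fcgr4 and Phf11b.

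Genes of fibroblasts and matrix shared the lower contralateral level. Of 20 fibroblast and myofibroblast markers tested, 1 was called higher (0.589% of all genes), and the median interaction was 0.92. Of the 20, 14 were higher at an unadjusted p under 0.05 (9.19% of all genes) and 19 had an interaction above 0 (48.6%). The list summed to 394 to 473 FPKM in Acot12+/+ CL and 149 to 282 in Acot12-/- CL libraries, without overlap, and to 942 to 1151 in Acot12+/+ UUO and 888 to 1177 in Acot12-/- UUO libraries, with overlap. Tagln, an actin-binding protein of smooth muscle and myofibroblasts, was the called member. It went from 45.9, 51.8 and 43.9 FPKM (CL) to 122, 144 and 124 (UUO) in wild-type mice. Acot12-/- mice went from 13.8, 13 and 21.1 to 95.9, 117 and 129. Its response was 1.44 in Acot12+/+ and 2.78 in Acot12-/- pairs, with an interaction of 1.34 (SE 0.20, adjusted p = 0.038). The small proteoglycans Bgn (1.33) and Prelp (1.33) were called outside the list. For Bgn the CL kidneys held 83.4, 80.4 and 96.5 FPKM in wild-type and 28.1, 37.5 and 36.5 in mutant mice, without overlap, and the UUO kidneys 176, 157 and 197 and 160.5, 164 and 207, with overlap.

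The fibrosis genes measured most often in this model did not pass. Col1a1, the main chain of type I collagen, rose by 2.12 in Acot12+/+ and by 2.78 in Acot12-/- pairs, with an interaction of 0.65 (adjusted p = 0.419). Acta2, the smooth muscle actin of myofibroblasts, rose by 1.42 and 1.35, with an interaction of -0.07 (adjusted p = 0.962). Tgfb1 rose by 2.13 and 2.94, with an interaction of 0.80 (adjusted p = 0.400). Their Acot12-/- UUO levels were 57.7, 65 and 69.1 FPKM for Col1a1, 35.4, 32.3 and 35 for Acta2 and 28.8, 33.8 and 28.8 for Tgfb1, and those of wild-type UUO kidneys 62.5, 65.4 and 90.5 for Col1a1, 38.1, 50.8 and 48.2 for Acta2 and 27.4, 27.2 and 36.5 for Tgfb1. The Acot12-/- libraries lay below the Acot12+/+ ones for Acta2 and overlapped them for Col1a1 and Tgfb1. The pairwise differences of Tgfb1 did not overlap between genotypes, and those of Col1a1 and Acta2 did. Without Acot12-/- replicate 2, 11 of the 20 fibroblast markers were called, all higher (6.44% of all genes), including Col1a2, Col3a1, Pdgfra and Pdgfrb. Of 18 matrix proteases and inhibitors 11 were higher at an unadjusted p under 0.05 (9.19% of all genes). Of these 18, 0 were called, and the median interaction was 0.54, with 4 called higher without that mouse. Of 27 genes of TGF-beta and BMP signaling 0 were called and the median was 0.24. Without that mouse 5 were called higher (6.44% of all genes) and 2 lower (5.16%).

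Fabp4, a fatty acid carrier of adipocytes, capillary endothelium and macrophages, had the second largest positive interaction of the called genes. It read 279, 258 and 307 FPKM in the CL and 209.6, 207 and 167 in the UUO kidneys of wild-type mice. In Acot12-/- mice the CL kidneys gave 55.9, 102 and 66.2 and the UUO kidneys 199, 243 and 312. Each Acot12-/- CL library lay below every other library. The interaction was 2.30 (SE 0.29, adjusted p = 0.031), from a response of -0.54 in Acot12+/+ (adjusted p = 0.055) and 1.76 in Acot12-/- pairs. Of 12 markers of adipocytes and of the adrenal cortex, tissues next to the kidney, none passed the filter. Their sum ran from 1.32 to 20.5 FPKM (CL) and from 1.19 to 2.13 (UUO) in wild-type mice and from 0.725 to 1.85 (CL) and from 0.947 to 1.87 (UUO) in Acot12-/- mice. The largest single value was 15.1 FPKM, of Cfd in the wild-type CL group, against at most 0.975 in the other groups. Plin1, the perilipin of adipocytes, was at 0 in all but the wild-type CL group. The part of adipose tissue in the Fabp4 result was not tested. Igfbp3, a carrier of insulin-like growth factors, gave 78.7, 69 and 151 FPKM in wild-type CL libraries and 63.8, 53.3 and 89 after obstruction. The mutant libraries read 22.5, 34.9 and 26.8 in CL and 68.6, 102 and 74 after obstruction. It fell in Acot12+/+ pairs, by 0.47, and rose in Acot12-/- pairs, by 1.5, and the interaction was 1.98 (adjusted p = 0.030). Ecm1, a matrix glycoprotein, fell by 1.27 in Acot12+/+ and rose by 0.66 in Acot12-/- pairs (1.92, adjusted p = 0.038). Its Acot12-/- CL libraries, 18.3, 18.4 and 25.3 FPKM, lay below the Acot12+/+ CL ones, 45.2, 39.5 and 63.4. The remaining genes of the 12 with the largest positive interaction were Lst1, a leukocyte gene (2.02, adjusted p = 0.038), Esm1 (adjusted p = 0.038), Prkcdbp, which encodes the caveolar protein cavin-3 (1.87, adjusted p = 0.038), and Retnlg, a resistin-like protein of neutrophils (1.86, adjusted p = 0.04999).

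The 5 genes with a negative interaction were all higher in the contralateral kidney of Acot12-/- mice. Gc, the vitamin D-binding protein of plasma, gave the largest interaction of all called genes in size (chr5:89417522-89457898, minus strand, GRCm38). It went from 1.46, 15 and 5.09 FPKM (CL) to 89.3, 166 and 128 (UUO) in wild-type mice. Acot12-/- mice went from 31.6, 69.9 and 42.8 to 108, 126 and 109.6. It rose in both genotypes, by 4.33 in Acot12+/+ and by 1.31 in Acot12-/- pairs, and the interaction was -3.02 (SE 0.44, adjusted p = 0.038). The CL groups did not overlap, and the Acot12-/- UUO libraries lay within the range of the Acot12+/+ UUO libraries.

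Slc3a2 and Slc7a8 encode the heavy and the light chain of LAT2, an exchanger of neutral amino acids in the basolateral membrane of the proximal tubule. Slc3a2 (chr19:8706882-8723369, minus strand, GRCm38) read 29.7, 37.7 and 41 FPKM in the CL and 44.8, 54.3 and 59.7 in the UUO kidneys of wild-type mice. In Acot12-/- mice the CL kidneys gave 112, 65.5 and 94.8 and the UUO kidneys 49.5, 36.2 and 53.7. It rose in Acot12+/+ pairs, by 0.54, and fell in Acot12-/- pairs, by 0.94, with an interaction of -1.48 (SE 0.18, adjusted p = 0.031). Slc7a8 (chr14:54722209-54781946, minus strand, GRCm38) gave 11.6, 16.8 and 21.7 FPKM in wild-type CL libraries and 13.6, 14 and 17.1 after obstruction. The mutant libraries read 70.6, 43.6 and 42.8 in CL and 23.3, 12.7 and 17.3 after obstruction. The Acot12-/- CL libraries stood above all others for both genes, and the interaction of Slc7a8 was -1.38 (SE 0.22, adjusted p = 0.047). Named after their values were seen, 3 other partners of Slc3a2 did not pass: Slc7a5, the light chain of LAT1, had an interaction of -0.13 (adjusted p = 0.926), Slc7a6 0.24 (adjusted p = 0.739) and Slc7a7, the basolateral exporter of cationic amino acids, -0.82 (adjusted p = 0.334). Ugt1a7c, a UDP-glucuronosyltransferase, fell by 1.10 in Acot12+/+ and by 2.67 in Acot12-/- pairs, from 47.4 to 52.0 FPKM in Acot12+/+ CL and 98.3 to 131 in Acot12-/- CL (-1.57, adjusted p = 0.038). The genes of the Ugt1a locus share their last exons, so its level is uncertain, and Mansc4, a membrane protein, had -1.21 (adjusted p = 0.049).

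The lists of proximal tubule markers and metabolic genes were changed by obstruction in both genotypes and held no called interaction with all 6 mice in. Of 19 proximal tubule markers, 18 fell in Acot12+/+ and 19 in Acot12-/- pairs, and 0 had a called interaction. Their median difference was -2.61, -2.15 and -2.03 in Acot12+/+ and -2.25, -3.94 and -2.14 in Acot12-/- pairs. The interaction of -0.48 thus rested on Acot12-/- replicate 2 and was 0.01 without it. This mouse stood out mainly on the obstructed side. Mean log2 levels of the list were 6.15, 4.20 and 6.00 for mutant UUO libraries, where replicate 2 was lowest of all UUO libraries. For mutant CL libraries they were closer, 8.39, 7.95 and 8.15. The median genotype difference of the list was 0.49 (CL) and 0.15 (UUO). Of 33 subunits of the respiratory chain all fell in both genotypes (33 and 33 called), the median interaction was 0.05 and 0 were called. With Acot12-/- replicate 2 left out, the median was 0.15, 7 subunits were called higher, Ndufa2, Ndufa5, Ndufb5, Ndufv2, Uqcrb, Cox6c and Cox7b, and 1 lower, Uqcrc1. Of 30 genes of fatty acid oxidation and PPAR alpha targets, 25 fell in Acot12+/+ and 26 in Acot12-/- pairs, with a median interaction of -0.16 and 0 called. Acyl-CoA thioesterases (median -0.15, 12 tested), lipid synthesis and lipid droplet genes (-0.14, 20 tested), cholesterol synthesis (-0.23, 20 tested), TCA cycle (-0.17, 19 tested), glycolysis (0.06, 18 tested), peroxins (-0.10, 16 tested) and autophagy and pexophagy genes (-0.09, 20 tested) had 0 called. Without that mouse, fatty acid oxidation and glycolysis still had 0, and the calls in the others were all lower. There were 1 thioesterase (Acot7), 2 genes of lipid synthesis and lipid droplets and 2 of cholesterol synthesis. The rest were 1 TCA cycle gene (Ogdh), 3 peroxins and 1 autophagy gene (Atg9a). Without that mouse 5.16% of all genes were called lower and 6.44% higher. Counts of 1 or 2 in lists of this size are near the share called lower. Ppara, the nuclear receptor that drives fatty acid oxidation, fell by 0.80 in Acot12+/+ and by 1.59 in Acot12-/- pairs, from CL levels of 9.68, 11 and 10.7 FPKM in wild-type and 19.1, 15.3 and 13.9 in mutant mice. Its pairwise differences did not overlap, and the interaction of -0.80 was not called (adjusted p = 0.206).

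Genes of peroxisomes and lipid that were chosen by name gave no called interaction. Acbd5, a peroxisomal membrane protein that tethers peroxisomes to the endoplasmic reticulum, went from 39.7, 35.7 and 43.1 FPKM (CL) to 20.7, 21.4 and 21.6 (UUO) in wild-type mice. Acot12-/- mice went from 40.4, 61.7 and 18 to 22.9, 19.4 and 20.5. The spread between Acot12-/- CL libraries was wide, the differences overlapped, and the interaction was 0.12 (SE 0.41, adjusted p = 0.950). Pex2, which serves the import of peroxisomal proteins, had 0.16 (adjusted p = 0.853). Plin2, which coats lipid droplets, rose by 0.89 in Acot12+/+ and 0.74 in Acot12-/- pairs (-0.14, adjusted p = 0.896). The enzymes of fatty acid synthesis Acly, Acaca and Fasn had -0.09, -0.28 and -0.07, and the desaturase Scd1 had -0.26, with adjusted p of 0.933, 0.664, 0.970 and 0.939. Slc4a11, a borate and proton transporter, was lower in Acot12-/- libraries on both sides, 4.02, 3.15 and 5.90 against 1.33, 1.27 and 1.41 FPKM in CL and 23.8, 23.2 and 20.7 against 6.51, 9.51 and 7.23 in UUO kidneys. Since both sides moved alike, its interaction was -0.27 (adjusted p = 0.765). The SE of the interaction ran from 0.21 for Acaca to 0.75 for Scd1 among these genes.

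Lysosomal genes had mostly negative interactions, 29 of 37, whereas 48.6% of all genes had an interaction above 0. Of 37 tested 0 were called, 9 were lower at an unadjusted p under 0.05 (4.01% of all genes), 2 were higher, and the median interaction was -0.23. The cathepsin Ctsl, a lysosomal protease of the proximal tubule, rose by 0.66 in Acot12+/+ pairs and had -0.12 in Acot12-/- pairs (adjusted p = 0.49), from CL levels of 284, 299 and 310.0 FPKM in wild-type and 545, 503 and 607 in mutant mice, without overlap. Its interaction of -0.78 was not called (adjusted p = 0.114), and the macrophage cathepsin Ctss had 1.31 (adjusted p = 0.116). Without Acot12-/- replicate 2, 10 of the 37 were called lower (5.16% of all genes), Ctsl and the hydrolases Glb1, Gaa and Man2b1 among them. Without it 1 was called higher, Ctss (6.44% of all genes). Cell cycle genes had 21 of 23 interactions below 0, with a median of -0.42. At an unadjusted p under 0.05, 1 was lower (4.01% of all genes), and 0 were called with and without Acot12-/- replicate 2. Of the 23, 15 rose in Acot12+/+ pairs (24.7% of all genes) and 7 in Acot12-/- pairs (27.3%).

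**Figure D4:**
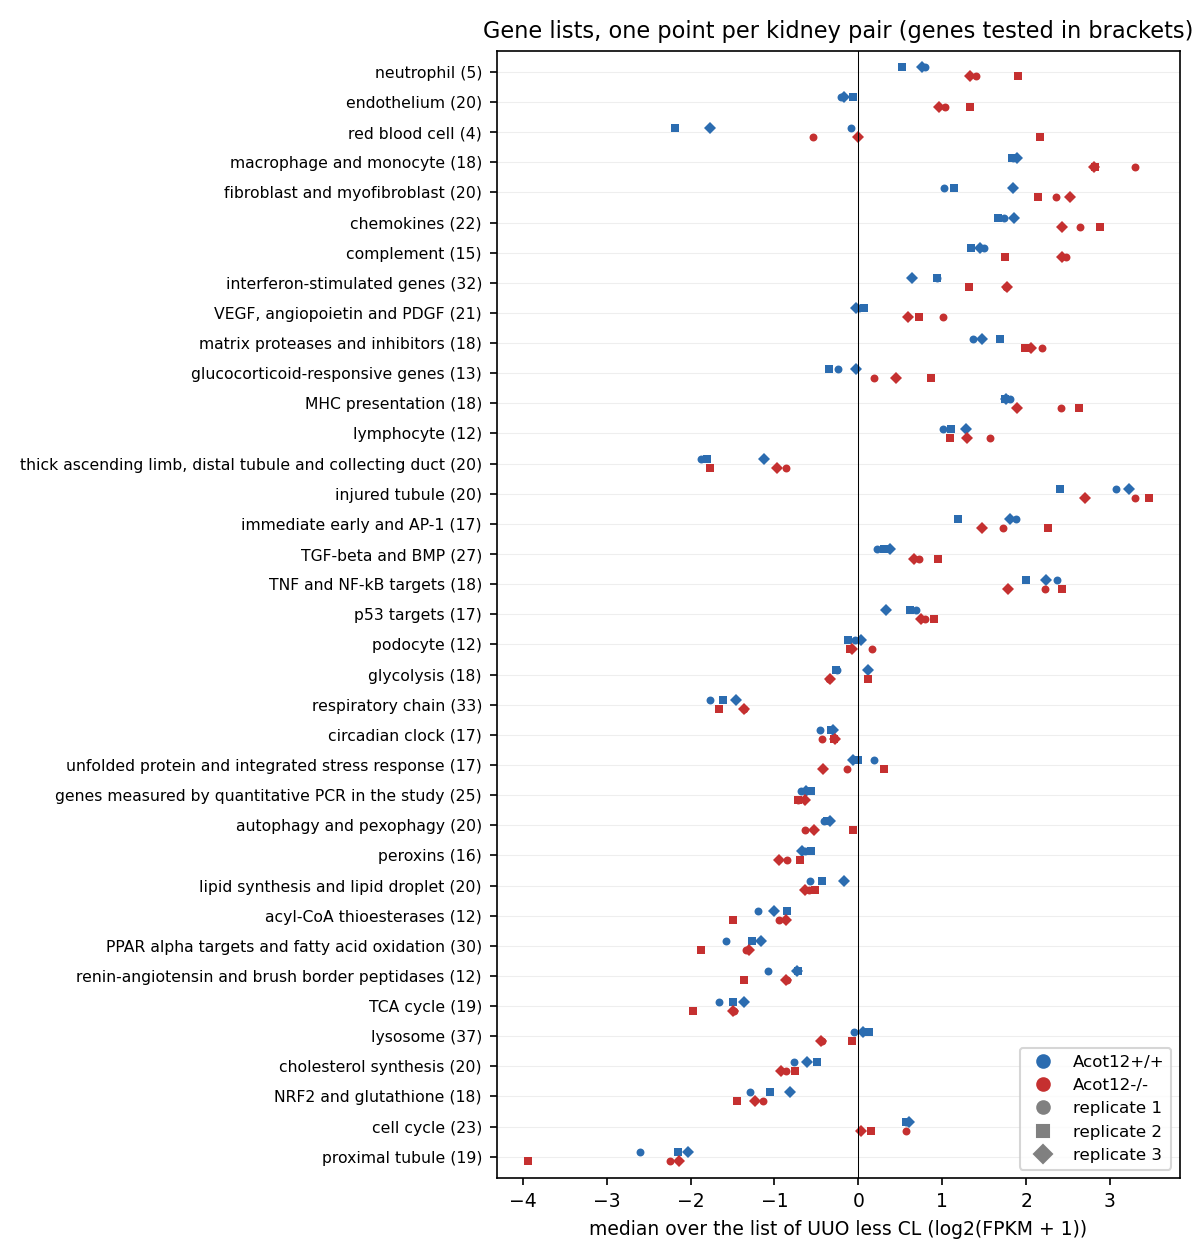
Median over each gene list of the difference between UUO and CL kidney (log2(FPKM + 1)) in each of the 6 mice, with lists ordered by their median interaction and the number of genes tested in brackets. Endothelial, macrophage, fibroblast, chemokine and complement lists have all Acot12-/- points (red) to the right of the Acot12+/+ points (blue), and the proximal tubule median of Acot12-/- replicate 2 lies far to the left at -3.94.

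Other lists gave no called gene or a single one with all 6 mice in. Without Acot12-/- replicate 2, 6.44% of all genes were called higher and 5.16% lower. These are the shares to set beside the counts in these and the remaining lists. Neutrophil markers, of which 5 of 12 were tested, had a median interaction of 1.86 with Retnlg called, and the markers of their granules Camp and Ngp were at 0 in all libraries of 3 of the 4 groups. Retnlg is a low transcript, going from 0.395, 2.41 and 1.61 FPKM (CL) to 0.235, 1.03 and 0.343 (UUO) in wild-type mice and from 0.177, 0.975 and 0.996 to 1.38, 5.98 and 2.62 in Acot12-/- mice. Lymphocyte markers had 0 of 12 called and a median of 0.40, and Nkg7, Gzma and Jchain were called higher without Acot12-/- replicate 2. The cytotoxic granule protein Nkg7 had the smallest p among them, with an interaction of 1.08 (adjusted p = 0.072) that was 1.21 (adjusted p = 0.019) without that mouse. Markers of the thick ascending limb, distal tubule and collecting duct had 0 of 20 called and a median of 0.38, and those of injured tubules 0 of 20 and 0.27. Leaving out Acot12-/- replicate 2 moved the former median to 0.65 with 4 called higher, Pvalb, Calb1, S100g and Slc4a1, and the latter to 0.16 with 1 called lower, Krt8. Slc4a1 is the same gene that was counted in the red blood cell list. S100g, the calcium-binding protein of the distal convoluted tubule, fell by 5.57 in Acot12+/+ and by 3.57 in Acot12-/- pairs, with an interaction of 2.01 that was not called (adjusted p = 0.080), and of 2.35 (adjusted p = 0.023) without that mouse. Ren1, the renin gene of the juxtaglomerular cells, read 16.3, 11.2 and 14 FPKM in the CL and 36.5, 27.2 and 35.2 in the UUO kidneys of wild-type mice. In Acot12-/- mice the CL kidneys gave 4.04, 7.21 and 5.64 and the UUO kidneys 71.1, 254 and 42.4. Neither side overlapped between genotypes, and the interaction of 2.64 (SE 0.49) missed the threshold (adjusted p = 0.059). Acot12-/- replicate 2 had the highest UUO level, and without it the interaction was 2.08 (adjusted p = 0.016).

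The remaining lists had 0 called genes, with medians of 0.15 for 18 TNF and NF-kB targets, 0.25 for 17 immediate early and AP-1 genes, 0.12 for 17 p53 targets, -0.07 for 17 genes of the unfolded protein and integrated stress response, -0.29 for 18 NRF2 and glutathione genes, -0.16 for 12 renin-angiotensin genes and brush border peptidases, -0.02 for 17 clock genes, 0.47 for 13 glucocorticoid-responsive genes, -0.09 for 25 genes also assayed by quantitative PCR and 0.01 for 6 markers of sex and strain. Without Acot12-/- replicate 2 there were 1 higher and 1 lower call among TNF and NF-kB targets, 2 lower among immediate early genes, 1 higher and 1 lower among p53 targets, 2 lower in the stress response, 1 higher and 3 lower among NRF2 and glutathione genes, Ren1 higher and Anpep lower in the renin-angiotensin list, and 1 higher among glucocorticoid-responsive genes.

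The overall size of the response was close in 5 of the 6 mice and larger in Acot12-/- replicate 2. The median over genes of the size of the difference between kidneys was 0.52, 0.46 and 0.49 in Acot12+/+ and 0.52, 0.76 and 0.54 in Acot12-/- mice. The Acot12-/- mean exceeded the Acot12+/+ mean by 0.12, with an exact two-sided permutation p of 0.1, the smallest that 3 against 3 allow. The excess was 0.04 without Acot12-/- replicate 2, and with libraries scaled to equal totals the sign turned (-0.065). Differences of single mice correlated across genes at 0.907 to 0.936 among Acot12+/+ mice, at 0.786 to 0.930 among Acot12-/- mice and at 0.812 to 0.865 between genotypes, given as a description without a test.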

How the data were processed

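RNA was sequenced from 12 mouse kidney cortex samples. The authors deposited 1 table of FPKM per sample; the sequencing provider had trimmed, mapped and normalized the reads, and the submitters' processing notes name edgeR and mm10. The aligner is not given in the sources used here, and the unit was inferred from the values. Samples were grouped by their labels. Values were taken as log2(FPKM + 1), genes needed at least 1 FPKM in at least 3 libraries, and genes listed at 0 beside at least 10 FPKM in their group were left out. The difference between kidneys of the same replicate number was fitted per mouse with limma 3.58.1 (trend on mean level, R 4.3.3), and p-values were adjusted by Benjamini and Hochberg. The script was tested on simulated data.

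Same-numbered kidneys were paired because their deviations correlated in all 6 pairs (0.15 to 0.32), not from the labels. The p-values measure the spread between these samples only. Depth was read from the steps of low values. Named genes were the 12 with the largest interaction in each direction among called genes whose differences did not overlap, called members of the gene lists or, for lists with none, the 2 with the lowest p, and 15 genes chosen by name. Some of these genes are not reported here. The members, lists and motifs were chosen with earlier results of these data known. Of 23183 symbols, 22148 matched GENCODE vM21, and the 13 mitochondrially encoded genes were absent from the tables used. Promoter sequences are from RefSeq (GRCm38.p6). Pseudocount, filter, scaling, variance model, pairing and single replicates were varied.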

Additional observations from a re-analysis of the deposited data

Results flagged for a closer look

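The response to obstruction differed between the genotypes, by the interaction term itself, in 83 genes. Of these, 78 had a positive and 5 a negative interaction, which gives its direction and not the size of a response. Of the 5, 3 had the response of larger size in Acot12-/- mice. The 83 genes drew attention because an effect under the same contrast differed between groups. In the 78 genes the median genotype difference was -1.22 on the log2 scale in CL and 0.28 in UUO kidneys, and in the 5 genes it was 1.28 in CL and -0.19 in UUO kidneys. All 83 were among the 1537 genes called without Acot12-/- replicate 2, the mouse whose CL library stood apart. Without any other single mouse, 0 of the 83 were called.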

How the results depend on the processing

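The 83 interactions kept their direction under every alternative in which they were tested. For fits without single mice this was certain beforehand, since their differences did not overlap between genotypes. The number called did not hold. It was 89 with a pseudocount of 0.1, 66 with a mean of at least 5 FPKM, 62 with genes listed at 0 kept, 77 with median-ratio size factors, 81 without a variance trend and 62 with robust moderation. It was 0 with no filter (2294 at an unadjusted limma p under 0.05), 0 with equal totals (1512) and 3405 with array weights, which gave Acot12-/- replicate 2 a weight of 0.112 and Acot12-/- replicate 1 one of 3.84. Without single mice it ran from 0 to 1537. Without the replicate block, that is without pairing, it was 14, and leaving out single libraries as well gave from 0 to 916, with 916 without Acot12-/- CL replicate 2, 153 without Acot12-/- CL replicate 3 and 8 without Acot12-/- UUO replicate 1. The causes were not tested.

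Responses to obstruction numbered 4100 to 8954 in Acot12+/+ mice without single mice, the lowest without Acot12+/+ replicate 1. With a change of at least 1 on the log2 scale they numbered 2663 in Acot12+/+ and 3443 in Acot12-/- mice. With equal totals the median over genes moved to 0.618 in the Acot12+/+ response, 0.447 in the Acot12-/- response and -0.175 in the interaction, and turned the split of the Acot12+/+ response from 3274 higher and 3480 lower to 7773 and 1200, and of the Acot12-/- response from 3614 and 3831 to 6329 and 1701. Kap is listed at 0 in 3 libraries and at up to 189590 FPKM in Acot12+/+ CL replicate 2, which bears on these totals. The excess in overall size was -0.065 with equal totals and ran from 0.0433 to 0.165 without single mice.

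Of the medians of 38 lists, 6 turned sign with equal totals, podocyte (-0.0521), TNF and NF-kB targets (-0.0564), p53 targets (-0.0771), respiratory chain (-0.136), glycolysis (-0.127) and sex and strain markers (-0.161), and 2 to 3 did so without any single mouse. Equal totals also lowered the medians of lymphocyte markers to 0.0996, TGF-beta genes to 0.108, matrix proteases to 0.352, endothelium to 0.988 and macrophages to 0.816. A pseudocount of 0.1 turned 0 of 38 and raised lymphocyte markers to 1.11, chemokines to 1.34, matrix proteases to 0.996, VEGF, angiopoietin and PDGF genes to 1.07, and TNF and NF-kB targets to 0.481.

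Without single mice the interaction ran from -0.342 to 0.556 for Acbd5, -0.0466 to 0.348 for Pex2, -0.302 to 0.0830 for Plin2, -0.292 to 0.263 for Acta2, -0.231 to 0.143 for Acly, -0.486 to 0.320 for Fasn and -0.846 to 0.487 for Scd1. Of single genes, none of them called, the interaction changed sign with array weights for Map1lc3a (-0.0145), Acta2 (0.141) and Scd1 (0.443), with a pseudocount of 0.1 for Slc4a11 (0.0464), and with equal totals for Acbd5 (-0.0633) and Pex2 (-0.0199). It changed sign without Acot12+/+ replicate 2 for Plin2 (0.0830), without Acot12+/+ replicate 3 for Acta2 (0.263), Fasn (0.0140) and Scd1 (0.388), without Acot12-/- replicate 1 for Pex2 (-0.0466), without Acot12-/- replicate 2 for Scd1 (0.487) and without Acot12-/- replicate 3 for Acbd5 (-0.342), Acta2 (0.0945), Acly (0.143) and Fasn (0.320). Depth limits low genes such as Retnlg, and 3 mice a genotype limit every call.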
